A study of Sus scrofa with 4 samples.

Results

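The signal recognition particle (SRP) genes were followed through the differentiation of porcine subcutaneous preadipocytes, and 8 of the 22944 genes with an FPKM value belonged to the set. They comprised the SRP RNA gene LOC102723301, the only row of the files with the biotype SRP_RNA, the genes of the 6 SRP proteins (*SRP9*, *SRP14*, *SRP19*, *SRP54*, *SRP68* and *SRP72*), and *SRPRB*, which encodes the β subunit of the SRP receptor. The members were chosen by name with their FPKM values already known, so their levels are given as a description and no test was applied to them. FPKM values are fragment counts divided by the length of the gene and scaled to the fragments counted in the library. All 8 genes had an FPKM of at least 1 in all 4 libraries, and none was lost to the filter for reliably expressed genes (FPKM of at least 1 in at least 3 libraries), which 9929 features passed.

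The cells came from the subcutaneous fat of 3 male 5-day-old Chinese Erhualian piglets. They were collected at confluence before induction (D0), after 2 days with dexamethasone, 3-isobutyl-1-methylxanthine and insulin (D2), after a further 2 days with insulin alone (D4), and on day 8, after growth medium had been renewed every other day (D8). Each stage was sequenced as 1 rRNA-depleted, strand-specific library in which the RNA of the 3 piglets had been mixed evenly, so that the variation among piglets and among library preparations is unknown, and stage and library cannot be told apart. All 95% intervals given here cover counting error only, and every comparison of stages is a comparison of 2 libraries without a test.

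The SRP is a ribonucleoprotein that recognizes the signal sequence of a secretory or membrane protein while it is still being translated. One end of the RNA, the Alu domain, carries the SRP9 and SRP14 proteins and slows elongation, while the other end, the S domain, carries SRP19, SRP68, SRP72 and SRP54, the GTPase that holds the signal sequence. The particle then docks at the SRP receptor in the membrane of the endoplasmic reticulum (ER), where the ribosome is handed to the Sec61 channel. The RNA is made by RNA polymerase III and the proteins are translated from ordinary mRNAs, and adipocytes depend on the pathway for the secretion of proteins such as adiponectin and lipoprotein lipase.

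The adipocyte markers were higher at D2, D4 and D8 than at D0. The summed FPKM of *ADIPOQ*, *FABP4*, *PLIN1*, *LPL*, *PPARG* and *CEBPA* was 121, 483, 1710 and 2011 on days 0, 2, 4 and 8, and each of the 6 genes was at least 2-fold higher at each of these stages. From D4 to D8, *FABP4* alone was higher (853 and 1557 FPKM), and the other 5 had lower values, *CEBPA*, *PLIN1* and *PPARG* by more than 2-fold (log2 ratios of -2.13, -1.25 and -1.01). The 6 stromal markers, among them *COL1A2* and *VIM*, had a summed FPKM between 3871 and 5391. They did not move together, as 4 had higher and 2 had lower values at D2 than at D0. *VIM* had 2952, 885, 766 and 1898 FPKM at D0, D2, D4 and D8, and *PDGFRA* had 75.8, 189, 149 and 60.8. The 5 endothelial markers summed to between 1.16 and 2.65 FPKM, nearly all of it from *PECAM1*. The 5 leukocyte markers summed to between 3.59 and 8.81 FPKM, mostly from *CD14*. *CD163*, another leukocyte marker, had an FPKM of 0.270 at D0 and 1.42 at D2. Its log2 ratio to D0 was 2.35 at D2, 1.86 at D4 and 2.32 at D8. That of *CD14* was 0.84, 1.26 and -0.18, respectively. *CDH5*, *VWF*, *KDR*, *TEK* and *PTPRC* were at or near 0. Of the skeletal muscle markers, only *MYOG* and *ACTA1* were listed, with a summed FPKM of at most 0.478. The part of these cells in the levels of the SRP genes was not tested.

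The SRP RNA was the most abundant feature of every library. LOC102723301 lies on the plus strand of chromosome 1 from 179457000 to 179457281 (Sscrofa11.1), is 282 bases long and is the only gene of this biotype in the RefSeq gene table of that build. Other copies of the sequence can share its reads, and how reads with several matches were counted is not given in the sources used here. Its FPKM was 441065, 607260, 443535 and 584856 in the D0, D2, D4 and D8 libraries. D0 and D4 formed a low pair and D2 and D8 a high pair. The next feature in every library was the lncRNA LOC106509199, which the SRP RNA exceeded 3.60-fold at D0, 3.33-fold at D2, 2.63-fold at D4 and 3.46-fold at D8, and *EEF1A1*, the highest protein-coding gene, was between 53.6-fold (D4) and 66.3-fold (D2) lower.

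By FPKM, the SRP RNA was 1.38 times higher at D2 than at D0 (log2 ratio 0.461, 95% counting interval 0.460 to 0.463) and 1.33 times higher at D8 than at D0 (log2 ratio 0.407, interval 0.406 to 0.408). At D4 it differed from D0 by a log2 ratio of 0.01 only. The largest ratio therefore lay under 2-fold, the threshold used in the study, and 26.1% of the 9191 reliably expressed rows listed as protein-coding (mRNAs) had a smaller range over the 4 libraries. In a bulk sample, more RNA per cell and more cells that contain it cannot be told apart.

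The share of the counted reads held by the SRP RNA is its FPKM times a constant, so the order of the stages is the same by definition. It was 12.4% at D0 (95% exact binomial interval 12.43 to 12.45), 17.1% at D2 (17.11 to 17.13), 12.5% at D4 and 16.5% at D8. The read number itself hardly differed. It was 9376712, 9416517, 9300573 and 8927316 in the order of the stages, a range of 1.05-fold. The library total behind the FPKM values, recovered from them, was 75387428, 54987801, 74358922 and 54128151 reads at D0, D2, D4 and D8, a range of 1.39-fold, so that the stages with a high FPKM of the SRP RNA were those with a low total. Without the SRP RNA the totals still ranged 1.46-fold. Among 9927 reliably expressed features with reads in all 4 libraries, the median feature had a 2.11-fold range of read numbers, and 0 had a smaller range than the SRP RNA. Among the 100 features with the highest mean FPKM, the next smallest range was 1.19-fold, for *RPL37A*, a ribosomal protein gene. The library total is the number of fragments, called reads here, that the FPKM values were scaled to, and it need not be all reads sequenced. Mapped reads reported in the paper ranked D4, D0, D2 and D8 from high to low, and D2 lay nearer to D0 there than in this total. Per mapped read, the SRP RNA would therefore differ less between D2 and D0 than by FPKM. With fewer SRP RNA reads but more mapped reads at D4 than at D0, it would be lower at D4 than at D0. The order of the stages would thus not be that by FPKM. The library total ran opposite to the FPKM of the SRP RNA, and its part in the differences between stages was not tested.

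**Figure D1:**
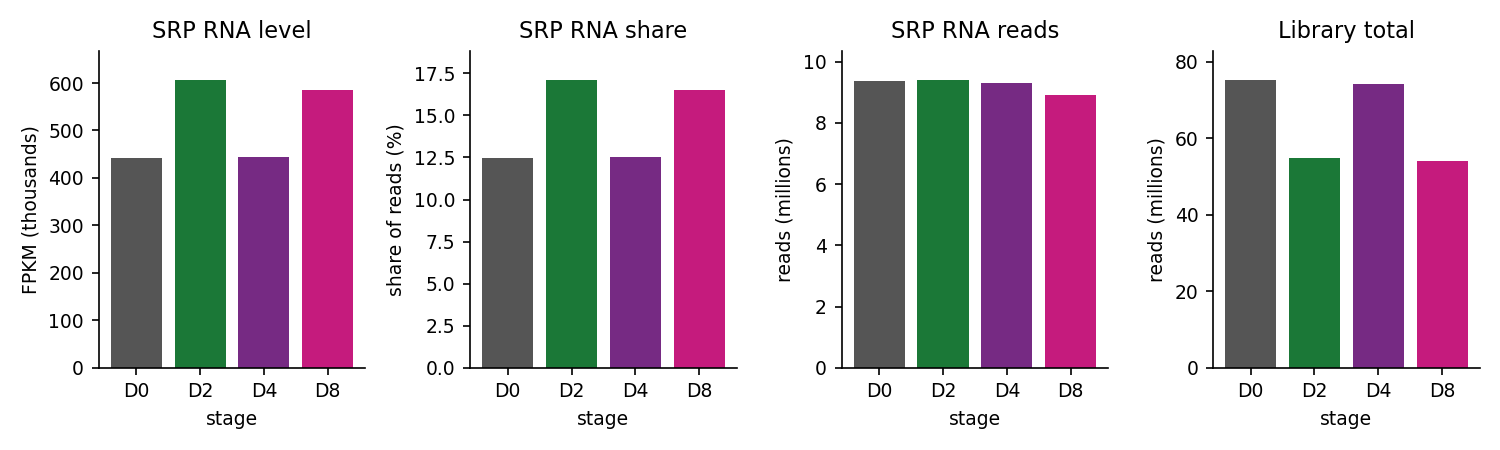
SRP RNA (LOC102723301) in the D0, D2, D4 and D8 libraries, as FPKM (scaled down as the axis says), as a share of the counted reads in percent, and as reads. At the right is the library total that FPKM was scaled to, in reads. Each bar is 1 pooled library with no error bar, and the reads stay between 8927316 and 9416517 while the totals fall into a high pair (D0 and D4) and a low pair (D2 and D8).

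The genomic neighbour of the SRP RNA gene showed another pattern. *RPS29*, a ribosomal protein gene on the minus strand, reaches to 152 bases before the SRP RNA gene, and the pair is therefore transcribed in opposite directions away from this gap. Its FPKM was 451, 761, 2058 and 600.1 on days 0, 2, 4 and 8. *RPS29* was thus highest at D4, by a log2 ratio of 2.19 to D0, where the SRP RNA was near its D0 level. On the other side, *LRR1* starts 4117 bases after the SRP RNA gene and had an FPKM between 1.49 and 2.56.

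The summed tRNA genes and the highest miRNA row did not share the pattern of the SRP RNA either. The 339 tRNA genes, likewise transcribed by RNA polymerase III, had a summed FPKM of 8889, 6316, 5589 and 5678 in the D0, D2, D4 and D8 libraries. Their sum was highest at D0, with a log2 ratio of -0.49 for D2 vs D0, -0.67 for D4 vs D0 and -0.65 for D8 vs D0. The leading pair of tRNA rows by mean FPKM moved apart, since *TRNAI-AAU* was lower at D2 than at D0 by a log2 ratio of -1.56 and *TRNAL-UAG* higher by 0.11. *MIR6782*, the highest miRNA row, had an FPKM of 18199, 19036, 15315 and 13545 at D0, D2, D4 and D8, and was lowest at D8.

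Features with a profile like that of the SRP RNA were sought by the distance between log2(FPKM + 0.01) profiles centred over the 4 libraries. The 5 nearest of 9928 features were the lncRNA LOC102163278 (distance 0.05), *FOXO4* (0.06), which encodes a forkhead transcription factor, LOC100524737 (0.08), *BET1* (0.10), which encodes an ER-to-Golgi SNARE protein, and *FAM43A* (0.11). As this way of choosing them implies, all 5 had their highest values at D2 and D8. *BET1*, for example, had an FPKM of 18.6, 24.7, 18.2 and 22.4 at D0, D2, D4 and D8. Of the 7 protein-coding members, *SRPRB* was nearest to the SRP RNA (0.32) and *SRP9* farthest (1.03).

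Among the proteins, those of the Alu domain had the highest mRNA levels at D0, and *SRP9* had the widest range over the stages. *SRP9* lies on chromosome 10 from 13711538 to 13723806, and its FPKM was 76.0, 47.8, 41.7 and 39.4 on days 0, 2, 4 and 8. The D0 library stood above the other 3, and the values of the later stages lay close to each other. The log2 ratio to D0 was -0.67 at D2 (95% counting interval -0.72 to -0.61), -0.87 at D4 (-0.92 to -0.81) and -0.95 at D8 (-1.01 to -0.89). Between D8 and D4 it was -0.08, and 0.13 with median-ratio scaling of the libraries. *SRP9* was the only protein-coding member that had a wider range (1.93-fold) than the median reliably expressed mRNA (1.64-fold).

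*SRP14*, whose product pairs with SRP9, lies on chromosome 1 from 131241561 to 131247693 and had an FPKM of 67.7, 56.9, 48.7 and 49.9 in the D0, D2, D4 and D8 libraries. It was also highest at D0, with a log2 ratio to D0 of -0.25 at D2, -0.47 at D4 and -0.44 at D8, while D8 and D4 differed by less than the counting error (log2 ratio 0.03, interval -0.01 to 0.07). The gene shares 2876 bases with *EIF2AK4* on the opposite strand. *EIF2AK4* had an FPKM of at most 10.9, at D4, where *SRP14* was lowest, and how strand was treated in counting is not given in the sources used here.

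The ratio of *SRP9* to *SRP14* within a library does not depend on the library total. It was 1.12 at D0 (95% interval 1.09 to 1.15), 0.840 at D2 (0.809 to 0.871), 0.855 at D4 (0.826 to 0.884) and 0.790 at D8 (0.759 to 0.823). *SRP9* was therefore the higher gene of the pair at D0 only, and the interval at D0 did not overlap those of the later stages. Together, both genes made up 55.4% of the summed FPKM of the 6 SRP proteins at D0 and 46.6% at D8.

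**Figure D2:**
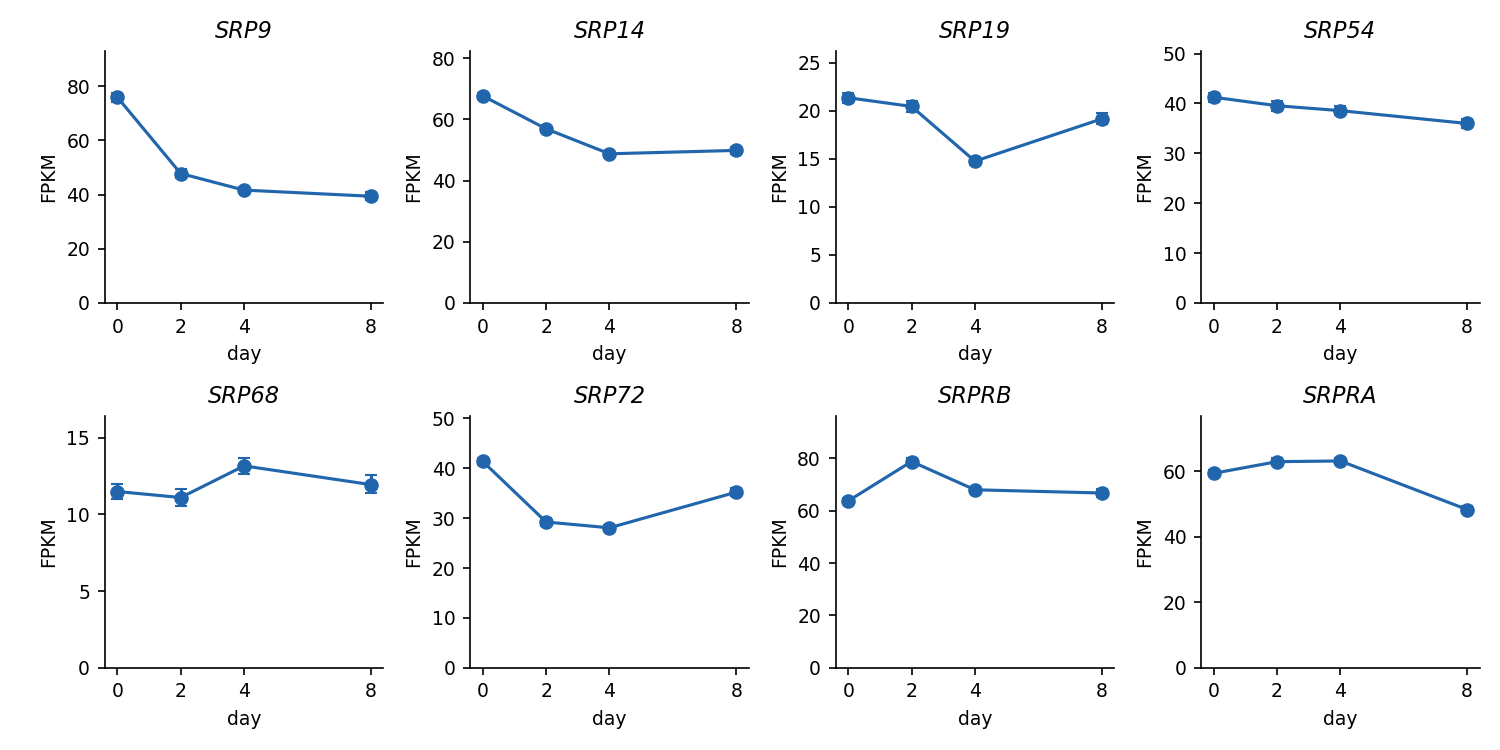
FPKM of the 7 protein-coding members and of *SRPRA* against the day of differentiation, each axis starting at 0. Points are single pooled libraries and bars are 95% counting intervals, with *SRP9* between 76.0 at D0 and 39.4 at D8, and *SRP54* between 41.2 and 36.0.

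The mRNAs of the S domain proteins did not move together. *SRP54*, which encodes the GTPase that binds the signal sequence, lies on chromosome 7 from 64829625 to 64877574 and had an FPKM of 41.2, 39.5, 38.6 and 36.0 at D0, D2, D4 and D8. These values were within a 1.15-fold range, and only 3.74% of the reliably expressed mRNAs had a smaller one. It shares 336 bases with LOC100153150 on the opposite strand, which had an FPKM between 4.37 and 7.17.

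*SRP19*, whose product binds the S domain RNA and prepares it for SRP54, lies on chromosome 2 from 116890800 to 116901501. Its FPKM was 21.4, 20.5, 14.8 and 19.2 on days 0, 2, 4 and 8. D4 was the low library and the other 3 were close to each other, with a log2 ratio of -0.47 between D4 and D2 (interval -0.53 to -0.41) and of 0.38 between D8 and D4 (0.32 to 0.44). The ratio of *SRP19* to *SRP54* was 0.518, 0.517, 0.383 and 0.533 in the D0, D2, D4 and D8 libraries. The interval at D4 (0.369 to 0.397) lay under the other 3, which overlapped.

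*SRP72* lies on chromosome 8 from 55729202 to 55762298 and encodes a scaffold protein that pairs with SRP68. Its FPKM was 41.4, 29.2, 28.1 and 35.2 at D0, D2, D4 and D8. D2 and D4 were low and D8 lay between them and D0, with a log2 ratio to D0 of -0.50 at D2 (interval -0.55 to -0.46), -0.56 at D4 (-0.60 to -0.52) and -0.23 at D8 (-0.28 to -0.19). *SRP68*, on chromosome 12 from 5368354 to 5402491, had the lowest FPKM of the 8 genes in every library, with 11.5, 11.1, 13.2 and 11.9 on days 0, 2, 4 and 8. It was highest at D4, where *SRP72* was lowest, with a log2 ratio to D0 of 0.20 (0.11 to 0.28).

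The partners *SRP68* and *SRP72* thus had the widest swing of the pairs. Their ratio within a library was 0.278 at D0 (interval 0.265 to 0.291), 0.380 at D2 (0.359 to 0.402), 0.469 at D4 (0.448 to 0.491) and 0.339 at D8 (0.321 to 0.358). None of the 4 intervals overlapped. *SRP72* was more abundant than *SRP68* in all 4 libraries, by at least 2-fold.

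The receptor gene *SRPRB* lies on chromosome 13 from 74976030 to 75010200, and its product anchors the receptor in the ER membrane. It had an FPKM of 63.7, 78.8, 68.0 and 66.7 in the D0, D2, D4 and D8 libraries. It was highest at D2, with a log2 ratio to D0 of 0.31 (interval 0.27 to 0.34), and D8 and D4 differed by less than the counting error (-0.03, -0.06 to 0.01). *SRPRA*, which is no member of the set and encodes the other receptor subunit, had an FPKM of 59.3, 62.9, 63.1 and 48.3 at D0, D2, D4 and D8. It was low at D8, with a log2 ratio of D8 to D4 of -0.39 (-0.42 to -0.35). The ratio of *SRPRB* to *SRPRA* was 1.07, 1.253, 1.08 and 1.38 in the order of the stages, so that *SRPRB* was the higher subunit in each library.

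**Figure D3:**
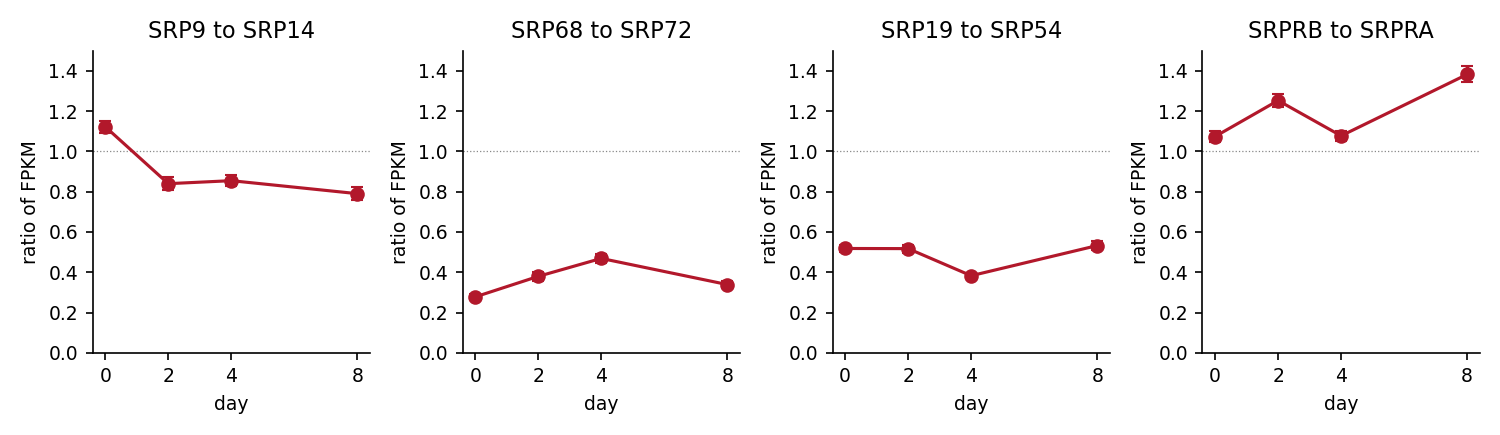
Ratio of FPKM between partner genes inside each library against the day of differentiation, with 95% counting intervals as bars and a dotted line at a ratio of 1. The ratio of *SRP9* to *SRP14* lies above 1 at D0 only, that of *SRP68* to *SRP72* goes from 0.278 at D0 to 0.469 at D4, and that of *SRP19* to *SRP54* is lowest at D4 (0.383).

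On the FPKM scale, which is per length, the order of the protein-coding genes was *SRP9*, *SRP14*, *SRPRB*, *SRPRA*, *SRP72*, *SRP54*, *SRP19* and *SRP68* at D0. *SRP72* and *SRP54* did not differ beyond counting error there (41.4 and 41.2). From D2 on, *SRPRB* was first, and *SRP54*, *SRP72*, *SRP19* and *SRP68* kept the last 4 places in this order. At D8 the intervals of *SRP54* and *SRP72* (36.0 and 35.2) and those of *SRP14* and *SRPRA* (49.9 and 48.3) overlapped. The highest of the 6 SRP protein genes exceeded the lowest 6.61-fold at D0, 5.13-fold at D2, 3.70-fold at D4 and 4.17-fold at D8.

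Compared with the mRNAs of its proteins, the RNA was in large excess on the FPKM scale, and protein amounts were not measured. The summed FPKM of the 6 SRP protein genes was 259, 205, 185 and 192 on days 0, 2, 4 and 8, and the FPKM of the SRP RNA was 1702, 2962, 2398 and 3053 times these sums. This ratio within a library was lowest at D0, and it compares a short RNA polymerase III transcript with mRNAs.

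In the 5 comparisons of the study, none of the 8 members was 2-fold higher or lower, and a smaller threshold, a log2 ratio of 0.32 in size, is used here to describe them. At most 4 members passed it in one direction. Between D2 and D0, *SRP9* and *SRP72* were lower past this threshold and the SRP RNA higher, whereas 32.1% of the 9929 reliably expressed features were lower and 27.3% higher. Past 2-fold, 7.06% of all features were higher and 10.7% lower. The median log2 ratio of the 7 protein-coding members was -0.06, against -0.03 for all features. With the SRP RNA left out of the library totals, the median of the members was 0.02, the opposite sign.

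Between D4 and D2, *SRP19* and the SRP RNA were lower past the threshold (10.6% of all features) and no member was higher (25.9%), while 4.53% of all features were 2-fold higher and 1.49% were 2-fold lower. The protein-coding members had a median log2 ratio of -0.20 and all features one of 0.09. Between D8 and D4, the SRP RNA, *SRP19* and *SRP72* were higher past the threshold (18.6% of all features), and no member was lower, as 41.9% of all features were. Past 2-fold, 4.75% of all features were higher and 10.4% lower. The median was -0.03 for the protein-coding members and -0.21 for all features. Median-ratio scaling shifts every log2 ratio of this comparison by 0.21, which gives the members a median of 0.18. With a pseudocount of 1, *SRP72* was under the threshold (log2 ratio 0.317) and 2 members were higher.

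Between D4 and D0, 4 of the 8 members, *SRP9*, *SRP14*, *SRP19* and *SRP72*, were lower past the threshold (29.1% of all features) and none was higher (34.4%). Of all features, 10.7% were 2-fold higher and 9.57% were 2-fold lower. The median of the 7 protein-coding members was -0.47, against 0.05 for all features. Between D8 and D0, *SRP9* and *SRP14* were lower past the threshold (35.2% of all features) and the SRP RNA was higher (13.1%), while 3.87% of all features were 2-fold higher and 4.82% were 2-fold lower, with a median of -0.20 for the protein-coding members and -0.18 for all features. Median-ratio scaling, which shifts this comparison by 0.16, left 1 lower member, *SRP9*. The 3 comparisons with D0 share the D0 library.

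**Figure D4:**
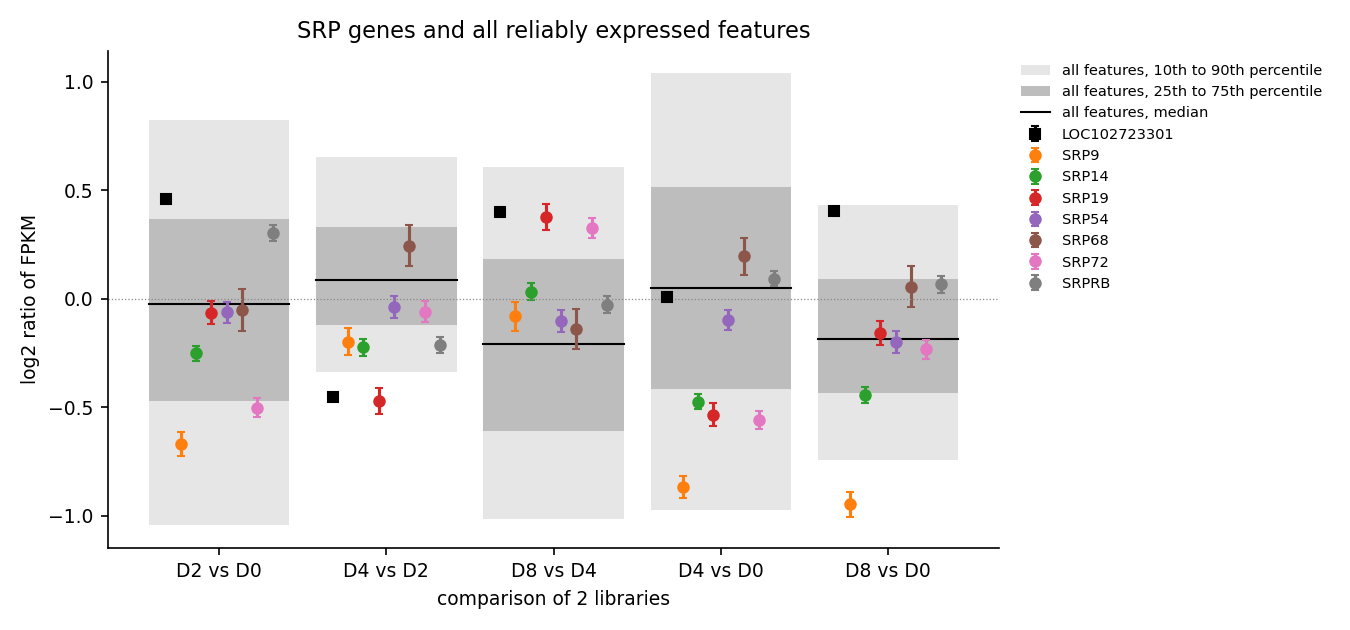
Log2 ratio of FPKM for the 8 members in each of the 5 comparisons, with 95% counting intervals as bars. Boxes span the 25th to 75th and the 10th to 90th percentile of all 9929 reliably expressed features and black lines are their medians. Under the outer box lie *SRP9* at D8 vs D0 (-0.95), and *SRP19* (-0.47) and the SRP RNA (-0.45) at D4 vs D2.

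The profile of the 7 protein-coding members, taken as their median, was highest at D0 and lowest at D4. By the same distance as above, its nearest neighbours among 9922 features were *EEF2KMT* (0.02), which encodes a methyltransferase of elongation factor 2, *TMED1* (0.02), which encodes a protein of early secretory vesicles, *ARL1* (0.02), a Golgi GTPase gene, *POMP* (0.03), listed as a lncRNA in the files, and *MRPL40* (0.03), a mitochondrial ribosomal protein gene. *ARL1*, for example, had an FPKM of 70.9, 63.6, 54.0 and 60.5 in the D0, D2, D4 and D8 libraries.

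Downstream of the receptor, several genes of the Sec61 channel and its partners were lower at D2 and D4 than at D0. Of 8 such genes, 5 were lower past the threshold of 0.32 at D2 and 0 higher, when 32.1% of all features were lower and 27.3% higher, and their median log2 ratio was -0.49, against -0.03 for all features. At D4, 4 were lower and 0 higher (29.1% and 34.4% of all features), with a median of -0.24, against 0.05. *SEC61B*, a small channel subunit, had an FPKM of 417, 283, 255 and 377 at D0, D2, D4 and D8. *SEC61G*, the other small subunit, had 301, 225, 152 and 288, respectively. Both were lowest at D4 and did not pass the threshold between D8 and D0, while *SEC61A1*, which encodes the pore-forming subunit, stayed between 38.1 and 44.4.

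The 4 genes of the TRAP complex, which assists the channel, all had higher values at D2 than at D0, 2 of them past the threshold (27.3% of all features). Their median log2 ratio was 0.32, against -0.03 for all features. At D4, 2 were higher past it and 0 lower (34.4% and 29.1% of all features), with a median of 0.27, against 0.05. At D8, 2 were higher and 0 lower (13.1% and 35.2%), with a median of 0.33, against -0.18. *SSR4* had the highest level, with an FPKM of 707, 932, 1039 and 939.9 on days 0, 2, 4 and 8. For the 5 signal peptidase genes, which encode the enzyme that removes the signal sequence, 2 were higher past the threshold and 1 lower at D2 than at D0 (27.3% and 32.1% of all features). The corresponding numbers were 2 and 2 at D4 (34.4% and 29.1%) and 0 and 0 at D8 (13.1% and 35.2%). *SEC11A*, a catalytic subunit, had 95.9, 117, 112 and 109 FPKM, and *SPCS2* was highest at D4 (49.9) and lowest at D8 (27.8).

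Among 12 genes of the oligosaccharyltransferase, which transfers N-glycans onto the entering chain, 3 were higher past the threshold and 2 lower at D2 than at D0 (27.3% and 32.1% of all features), 2 higher and 5 lower at D4 (34.4% and 29.1%), and 0 higher and 2 lower at D8 (13.1% and 35.2%). *TMEM258* had the highest level (145 at D4 to 195 at D8) and *KRTCAP2* the largest ratio, with a log2 ratio of -0.79 between D8 and D4. For the nascent chain complex, which contacts chains on the ribosome next to the SRP, *BTF3* lay between 166 and 183 FPKM, and *NACA* was 66.4, 50.9, 54.5 and 74.8 in the D0, D2, D4 and D8 libraries.

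Of the pathways that insert membrane proteins beside the SRP, the 7 genes of the tail-anchor (GET) route included 2 that were lower past the threshold at D4 than at D0 (29.1% of all features) and 0 that were higher (34.4%). The lower share was thus close to that of all features. *ASNA1*, the targeting ATPase gene, had an FPKM of 46.0, 42.6, 31.3 and 39.0 at D0, D2, D4 and D8, and *UBL4A* had 34.3, 22.5, 21.7 and 32.2. Of the 10 genes of the ER membrane complex, 3 were higher past the threshold and 3 lower at D4 than at D0 (34.4% and 29.1% of all features), and 0 were higher and 3 lower at D8 (13.1% and 35.2%). Apart from the 0 higher at D8, these shares were near those of all features. *EMC1* had the largest ratio among them, with 7.83 FPKM at D4 and 2.39 at D8, and *EMC3* the highest level (66.6 to 81.6).

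The 23 genes of RNA polymerase III and its factors, the machinery that transcribes the SRP RNA, did not all share one direction against D0. At D2 vs D0, 7 were higher past the threshold and 5 lower (27.3% and 32.1% of all features), at D4 vs D0 10 were higher and 3 lower (34.4% and 29.1%), and at D8 vs D0 1 was higher and 8 were lower (13.1% and 35.2%, the latter close to the share of this list). Between D4 and D2, 19 of the 23 had higher values, 1 of them past the threshold, which 25.9% of all features passed. Between D8 and D4, 21 of the 23 had lower values, 11 of them past the threshold, which 41.9% of all features also passed. The medians to D0 (-0.07, 0.04 and -0.18) lay close to those of all features (-0.03, 0.05 and -0.18). *POLR3A*, which encodes the largest subunit, had an FPKM of 1.90, 3.28, 3.80 and 1.72 on days 0, 2, 4 and 8. The part of these 23 genes in the level of the SRP RNA was not tested. *SSB*, which encodes the La protein that binds the ends of new RNA polymerase III transcripts, had 62.0, 48.4, 51.8 and 49.2 and was highest at D0.

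**Figure D5:**
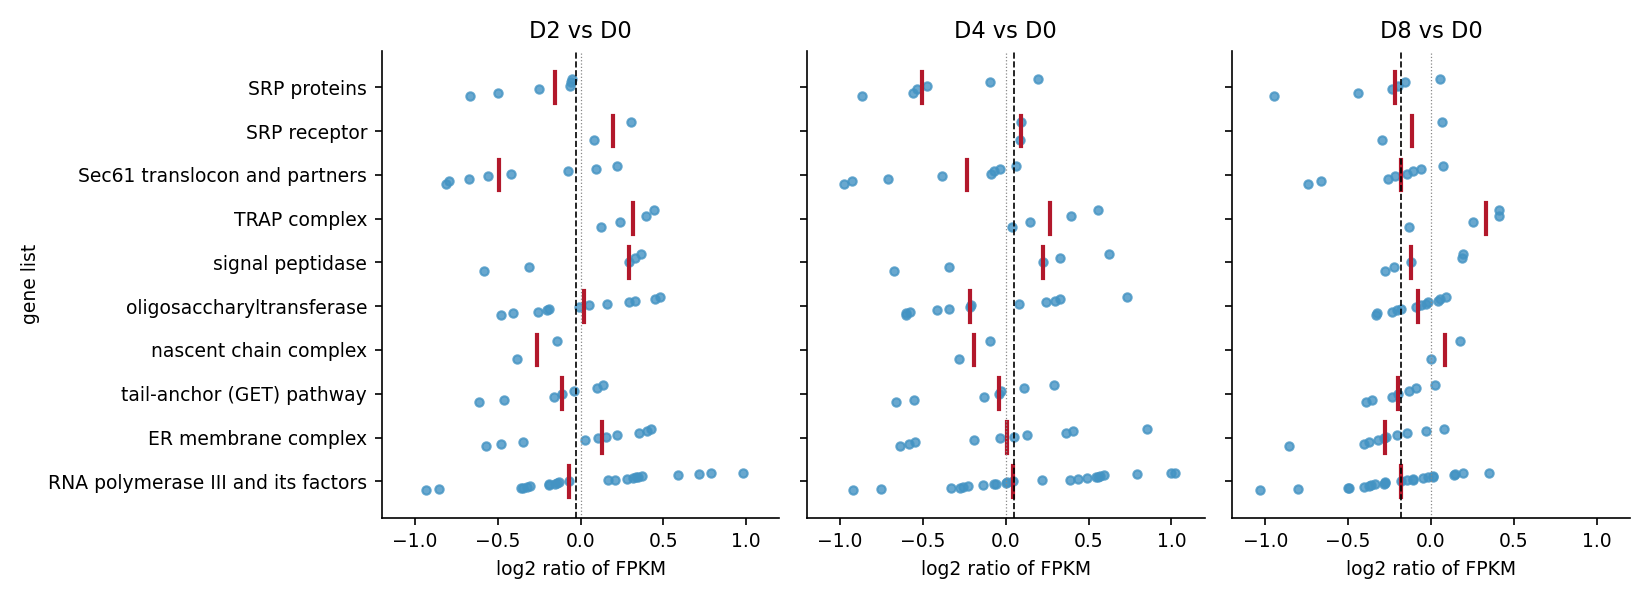
Log2 ratio of FPKM to D0 for the reliably expressed genes of 10 lists around the SRP pathway, at D2, D4 and D8. Each point is a gene, red bars are list medians and the dashed line is the median of all 9929 features (-0.03, 0.05 and -0.18), and the medians of the 6 SRP proteins lie at -0.16, -0.50 and -0.21.

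Circular RNAs were a readout of the same genes that the choice of members did not use. Their level is given as SRPBM, reads across a back-splice junction scaled to the mapped reads, where the value of 1 junction read was 6.42, 7.27, 5.94 and 8.40 SRPBM for D0, D2, D4 and D8. Within the 8 genes and on their strand, 12 of the 8623 circRNAs were found, 6 in *SRP72* and 2 each in *SRP54*, *SRP68* and *SRPRB*. None lay in the SRP RNA gene, *SRP9*, *SRP14*, *SRP19* or *SRPRA*. The 12 circRNAs together had 26, 59, 43 and 39 junction reads in the D0, D2, D4 and D8 libraries, that is 0.0489%, 0.134%, 0.0842% and 0.104% of all junction reads.

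The circRNAs of *SRP72* added up to 9, 19, 14 and 26 junction reads at D0, D2, D4 and D8. In SRPBM these were 57.8 (95% exact Poisson interval 26.4 to 110), 138 (83.1 to 216), 83.1 (45.4 to 139) and 218 (143 to 320), so that the intervals at D0 and D8 did not overlap. A single circRNA, from 55749265 to 55755369, was found in all 4 libraries, with 9, 9, 9 and 10 junction reads. At D8, 5 of the 6 circRNAs of the gene were found, and 3 of them, with 3, 6 and 5 reads, were listed at 0 in the other libraries. The study kept circRNAs from 2 junction reads on, so a value of 0 may stand for 1 read. The intervals here and for the next genes take a listed 0 as no read. At D0 only 1 of the 6 circRNAs was listed above 0, so its sum may be too low and the gap to D8 smaller than shown. The FPKM of *SRP72* itself was highest at D0.

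For *SRP54* the circRNAs had 6, 22, 10 and 7 junction reads on days 0, 2, 4 and 8. Most reads at D2 came from the circRNA between 64842214 and 64854244, with 16 reads at D2, 7 at D4 and 0 at D0 and D8. The circRNAs of *SRP68* had 2, 15, 7 and 0 junction reads and were highest at D2 as well, and those of *SRPRB* had 9, 3, 12 and 6. In SRPBM, the interval of *SRP54* at D2 (100 to 242) lay above that at D0 (14.1 to 83.8) and that of *SRP68* at D2 (61.0 to 179.8) above that at D0 (1.55 to 46.4), while the intervals of *SRPRB* overlapped in all 4 libraries. The FPKM of *SRP54* and *SRP68* at D2 differed from D0 by log2 ratios of -0.06 and -0.05 only, and of 0.02 and 0.03 with the SRP RNA left out of the library totals.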

How the data were processed

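Reads of 4 libraries (D0, D2, D4 and D8) had been aligned by the authors to the pig genome Sscrofa11.1 with HISAT2 2.0.5, and circRNAs were called with BWA-MEM and CIRI from at least 2 junction reads. The authors deposited FPKM for all features except circRNAs and SRPBM for circRNAs. How reads that map to several places were counted is not given in the sources used here, and copies of the SRP RNA elsewhere in the genome may share reads with it. Read numbers were recovered from the deposited FPKM. The smallest FPKM times length among tRNA and miRNA genes was taken as 1 read, which gave the library totals that FPKM was scaled to, and 93.4% to 94.9% of these rows were then whole within 0.005 reads. For each protein-coding member, the shortest length that turned the 4 values into whole reads was used, a search that was tested on simulated data. Ratios were differences of log2(FPKM + 0.01). Intervals were exact (binomial or Poisson). Python 3.11.15 and SciPy 1.17.1 were used. The members, the gene lists and the log2 threshold of 0.32 were chosen with earlier results of these data known. Genes named besides the members were the nearest 5 profiles, the highest small RNA rows, and in each list the gene with the highest mean FPKM and that with the largest ratio. The overlapping and neighbouring genes, *SEC61A1*, *PDGFRA* and the markers near 0 were added after their values were seen.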

Additional observations from a re-analysis of the deposited data

How the results depend on the processing

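With 1 library per stage, neither a library could be left out nor a test made. No paired analysis was possible because each stage had 1 library. Pseudocounts of 0.1 and 1 moved none of the 45 log2 ratios of the members and their median beyond its counting interval, but with a pseudocount of 1 the members higher past the log2 threshold of 0.32 at D8 than at D4 were 2 instead of 3, without *SRP72* (0.317). With the SRP RNA left out of the library totals, its log2 ratio was 0.54 (D2 vs D0), -0.53 (D4 vs D2), 0.47 (D8 vs D4) and 0.48 (D8 vs D0), and the median of the 7 protein-coding members was 0.017, -0.28, 0.041 and -0.13, respectively. With median-ratio scaling over mRNAs, the SRP RNA had 0.50, -0.54, 0.61, -0.047 (D4 vs D0) and 0.56 (D8 vs D0), and the median of the proteins was -0.29 (D4 vs D2), 0.18 (D8 vs D4), -0.53 (D4 vs D0) and -0.041 (D8 vs D0). The number of members that were higher past this threshold at D2 than at D0 was 2 under both scalings instead of 1, and 1 member instead of 2 was lower past it at D8 than at D0 under median-ratio scaling, which shifts the ratios of D8 vs D4 by 0.21 and of D8 vs D0 by 0.16. Under each scaling, 6 of the 45 log2 ratios of the members and their median changed sign, with main values between -0.14 and 0.01. As a share of the summed FPKM, which weights short genes up, the SRP RNA held 43.4%, 50.2%, 42.4% and 48.8% in the D0, D2, D4 and D8 libraries.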
